A study of Mus musculus with 25 samples.

Results

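RNA of circadian clock genes was read in pituitaries from hpg mice that received GnRH or placebo. The 10 genes were the activators Arntl and Clock, the repressors Per1, Per2, Per3, Cry1 and Cry2, the receptors Nr1d1 and Nr1d2 of the second loop, and the output gene Dbp. They were chosen by symbol, and each of the 10 had a single row among the 47069 genes of the table, Arntl being the older symbol of Bmal1. All 10 were among the 19141 genes tested, and the lowest value of any of them in any animal, 7.77 for Arntl, lay well above the filter at a mean of 3. The groups were 6 GnRH females, 5 placebo females, 8 GnRH males and 6 placebo males. All 25 animals, placebo included, were hpg/hpg, a genotype in which Gnrh1 is disrupted and gonadotropin-releasing hormone (GnRH) is not made, so any GnRH came from the injections. GnRH animals received 1 µg intraperitoneally on each of 10 days and placebo animals received saline. Pituitaries were taken 1 h after the last injection. The sources used here do not give age, strain, batch or the hour of injection or killing.

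As background, CLOCK and BMAL1 (the product of Arntl) pair and switch on genes that carry E-box elements, among them the Per, Cry and Nr1d genes and Dbp. PER and CRY proteins then shut the pair down, which closes a loop of about a day. REV-ERBα and REV-ERBβ, the products of Nr1d1 and Nr1d2, repress Arntl and Clock and compete for the same elements with ROR receptors, and DBP acts through D-box elements. In tissues with a running clock, Arntl RNA peaks out of phase with Per and Dbp RNA. The Per1 gene is also known as an early target of cAMP, calcium and glucocorticoid signals in several tissues, and GnRH acts on gonadotropes, a minority of pituitary cells, through calcium and protein kinase C.

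The promoter windows of 4 members are shown because they carry the elements through which these genes are known to act on each other. Sequences are from RefSeq on GRCm38.p6, in windows of 300 bases that run from 250 bases before to 50 after a start site. Of the 10 members, 9 matched this table, and Per2 is named only. Capitals mark motif letters found by a search of both strands, positions count from the start site of the window, and both CACGTG and its relative CACGTT are E-box forms.
Per1, chr11:69098763-69098837, plus strand: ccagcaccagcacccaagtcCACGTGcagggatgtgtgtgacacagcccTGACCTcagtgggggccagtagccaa
Cry1, chr10:85185089-85185153, minus strand: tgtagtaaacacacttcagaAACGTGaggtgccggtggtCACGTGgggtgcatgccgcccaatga
Per3, chr4:151044796-151044890, minus strand: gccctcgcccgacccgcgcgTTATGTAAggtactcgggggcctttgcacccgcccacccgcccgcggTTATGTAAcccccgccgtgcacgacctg
Nr1d1, chr11:98775380-98775425, minus strand: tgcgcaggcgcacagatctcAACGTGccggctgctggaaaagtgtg

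CACGTG began at -166 in Per1 and at -60 in Cry1, and 7.15% of all 32851 windows held it. CACGTT, read on the other strand as AACGTG, was present in Cry1, Cry2 and Nr1d1 and in 4.68% of all windows. Per3 held the D-box TTATGTAA at -205 and again at -158, whereas 0.938% of all windows held it at all. The letters AGGTCA, one copy of the element bound by REV-ERB and ROR proteins, occurred in windows of Per1 (as TGACCT on the other strand), Arntl, Clock and Nr1d2 and in 16.3% of all windows. The D-box form TTACGTAA (0.119% of windows) and the cAMP response element TGACGTCA (1.79%) were in none of the member windows. The shares are per window, whereas a member was named if any of its windows held the letters. Clock had 3 windows, Per1 and Arntl had 2 each, and the other matched members had 1. All of these are matches of letters and say nothing of binding in these pituitaries.

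Values are regularized log2 values per animal, so a difference of 1 is a doubling on that scale, and a fold is 2 to the power of a difference. The depth of the libraries is unknown. Correlations between libraries lay between 0.992 and 0.998 and library medians between 8.09 and 8.13. All 12 markers of the anterior pituitary were expressed. Fshb, the gonadotrope subunit that GnRH is known to induce, was 4.20-fold higher in GnRH than in placebo females and 6.81-fold higher in GnRH than in placebo males (adjusted p 0.000347 and 1.52e-07, limma). The mean over the 12 anterior pituitary markers ran between 13.44 and 13.72 in GnRH females against 13.12 to 13.33 in placebo females, and between 13.35 and 13.66 in GnRH males against 13.09 to 13.37 in placebo males. Fshb is 1 of these 12 markers, so its rise enters these means. The median log2 difference over the 12 was 0.28 in females (9 higher, 3 lower) and 0.068 in males (8 higher, 4 lower). The mean over 5 endothelial markers, 2 of which were called higher in the averaged contrast, ran between 9.90 and 10.18 in GnRH females against 9.79 to 9.98 in placebo females, and between 9.86 and 10.24 in GnRH males against 9.86 to 9.94 in placebo males. The part of either in the clock gene differences was not tested. In whole pituitary RNA, more cells of a type and more RNA per cell cannot be told apart.

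The Per genes were higher and Arntl and Clock lower with GnRH in both sexes, but no clock gene passed the adjusted threshold of 0.05 in any contrast when all 19141 genes and all 25 animals entered at equal weight. The hour of killing is not given, so its part in these differences was not tested. With the sexes averaged, Per2 was 1.59-fold higher in GnRH than in placebo pituitaries, a log2 difference of 0.67 (SE 0.18, 95% interval 0.30 to 1.04, adjusted p 0.0537, limma). Per1 differed by 0.49 (SE 0.15, adjusted p 0.111), Per3 by 0.32 (SE 0.10, adjusted p 0.147), Arntl by -0.45 (SE 0.16, adjusted p 0.191) and Clock by -0.18 (SE 0.061, adjusted p 0.169). Of the 10 genes, 0 were called by limma, where 1.71% of the genes tested were called. At an unadjusted p under 0.05 there were 6 of 10, namely Per1, Per2, Per3 and Cry2 higher and Arntl and Clock lower, where 12% of all genes reached it (6.51% higher, 5.48% lower). The difference was positive for 7 of the 10 genes and for 49.4% of all genes. The median difference over the 10 genes was 0.21, and over all genes tested it was -0.00088. Per2 alone passed when genes with a mean under 5 were left out (adjusted p 0.0499) and when animal 1, 10, 15, 16, 17 or 19 was left out. With limma's array weights 5 of the 10 genes passed (Per1, Per2, Per3, Arntl and Clock, adjusted p 0.0153 to 0.0438), where 942 of all genes tested did. A pair of placebo animals, female 3 and male 14, bears on these sizes. Both were lowest of their groups in the Per genes and highest in Arntl, so leaving them out had to shrink those differences. The animals were picked from these same values, and the fit without them was not planned. Without both of them the Per2 difference was 0.47 (adjusted p 0.252), the Per1 difference 0.32, the Per3 difference 0.19 and the Arntl difference -0.28 (adjusted p 0.607). In that fit 4 of 10 genes had an unadjusted p under 0.05, where 8.64% of all genes did, and the median was 0.069 over the 10 genes and -0.00070 over all genes. It called 183 of all genes tested, against 327 with all 25 animals.

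**Figure D1:**
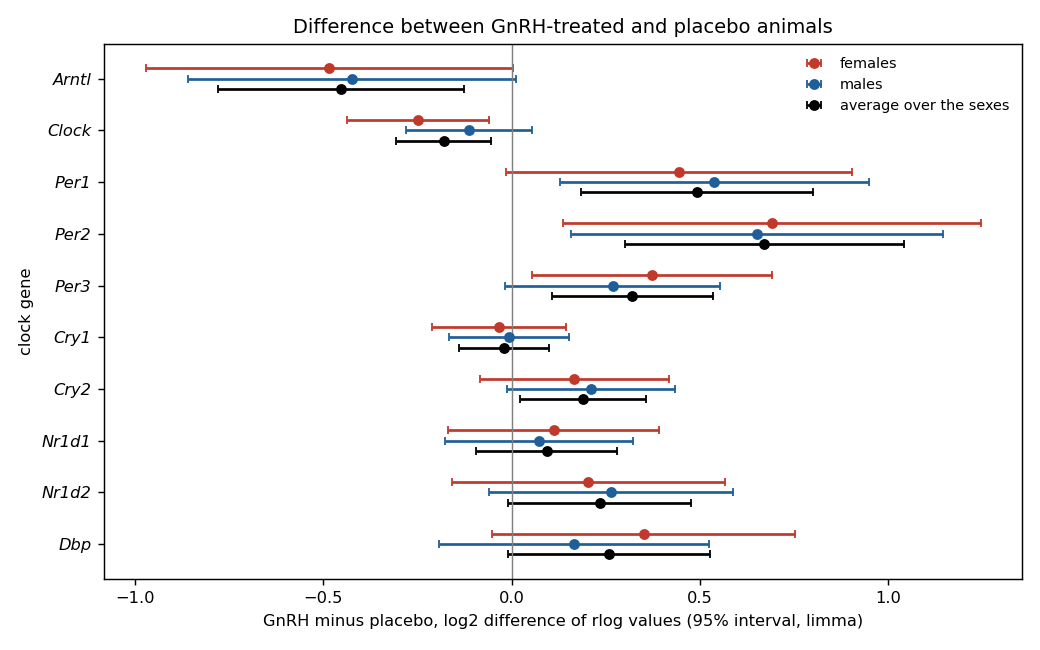
Difference between GnRH and placebo animals on the regularized log2 scale (x axis) for each clock gene (y axis), with 95% intervals from limma, for females (6 GnRH, 5 placebo), males (8 GnRH, 6 placebo) and the average of the sexes. The averaged intervals of Per1, Per2, Per3 and Cry2 lie to the right of 0 and those of Arntl and Clock to the left, while Cry1 sits at -0.019.

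Arntl encodes BMAL1, the obligate activator of the loop. In GnRH females its values ran from 7.92 to 8.77 with a median of 8.26, against 8.19, 8.81, 9.50, 8.78 and 8.45 in placebo females 1 to 5. In GnRH males they ran from 7.77 to 8.84 with a median of 8.43, against 7.92 to 9.57 with a median of 8.84 in placebo males. The groups overlapped in both sexes, although 5 of 6 GnRH females and 7 of 8 GnRH males lay below the mean of their placebo group. Arntl differed by -0.48 in females (SE 0.24, adjusted p 0.527) and by -0.42 in males (SE 0.21, adjusted p 0.790). These values were -0.29 without animal 3 and -0.27 without animal 14. Clock, the partner of BMAL1, varied far less between animals. It lay between 9.74 and 10.07 in GnRH females with a median of 9.88, against 10.14, 10.04, 10.28, 10.20 and 10.10 in placebo females 1 to 5. Of the 6 GnRH females, 5 were below every placebo female, and the difference was -0.25 (SE 0.092, adjusted p 0.384). In males Clock averaged 9.96 ± 0.16 with GnRH (SD, n = 8) and 10.07 ± 0.23 with placebo (SD, n = 6), a difference of -0.11 (adjusted p 0.988). The male Clock difference was -0.057 without animal 12, -0.069 without animal 14 and -0.17 without animal 16.

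Per1, Per2 and Per3 encode the period proteins, of which PER1 and PER2 are the main repressors. Per2 values in GnRH females ran from 10.31 to 11.29 with a median of 11.18, against 11.06, 10.29, 9.36, 10.47 and 10.38 in placebo females 1 to 5. In GnRH males they ran from 10.23 to 11.35 with a median of 10.89, against 9.34 to 10.98 with a median of 10.31 in placebo males. All 6 GnRH females and all 8 GnRH males lay above the mean of their placebo group, 4 of 6 and 2 of 8 lay above every placebo animal of their sex, and the groups overlapped. The Per2 difference was 0.69 in females (SE 0.27, adjusted p 0.427) and 0.65 in males (SE 0.24, adjusted p 0.440). Per1 values ran from 11.86 to 12.98 in GnRH females with a median of 12.36, against 12.34, 12.23, 11.21, 11.79 and 12.08 in placebo females 1 to 5. In males they ran from 12.00 to 12.91 with GnRH, median 12.47, and from 11.10 to 12.44 with placebo, median 12.13. The 8 GnRH males all lay above the placebo mean and 5 above every placebo male. Per1 differed by 0.44 in females (SE 0.22, adjusted p 0.539) and by 0.54 in males (SE 0.20, adjusted p 0.441). Without animal 3 the female differences were 0.26 for Per1 and 0.45 for Per2. Per3, which is dispensable for rhythms in most tissues, averaged 12.19 ± 0.21 in GnRH and 11.82 ± 0.38 in placebo females (SD, n = 6 and 5). In males it averaged 12.08 ± 0.19 with GnRH and 11.81 ± 0.37 with placebo (SD, n = 8 and 6).

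**Figure D2:**
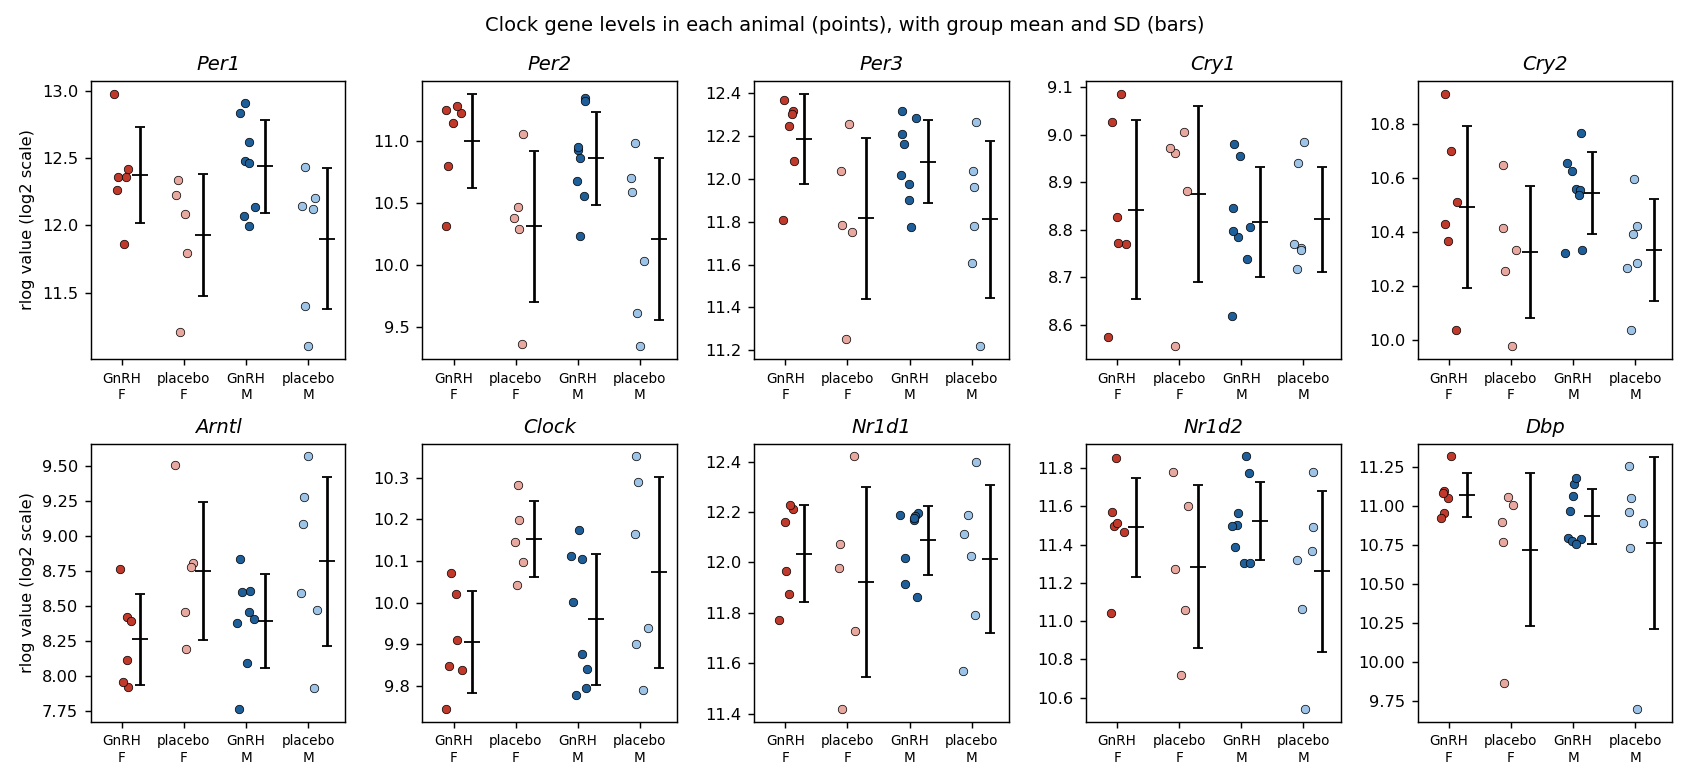
Regularized log2 value (y axis) of each clock gene in every animal (points), by group (x axis, F female, M male), with bars for the group mean and SD. In Per2 the GnRH groups run from 10.31 to 11.29 (females) and 10.23 to 11.35 (males), above most placebo animals but overlapping them, while in Cry1 the groups coincide.

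Cry1 and Cry2 encode the cryptochromes, the partners of the period proteins. Cry1 showed the smallest treatment difference of the 10 genes, -0.019 averaged over the sexes (95% interval -0.14 to 0.10, adjusted p 0.926). It averaged 8.84 ± 0.19 in GnRH and 8.88 ± 0.18 in placebo females, and 8.82 ± 0.12 in GnRH and 8.82 ± 0.11 in placebo males. Its sign turned when animals 3 and 14 were left out, to 0.013. Cry2 differed in the same direction as the Per genes, at 10.49 ± 0.30 in GnRH and 10.33 ± 0.25 in placebo females and at 10.55 ± 0.15 in GnRH and 10.33 ± 0.19 in placebo males. The averaged Cry2 difference was 0.19 (95% interval 0.021 to 0.36, adjusted p 0.331), and 0.12 without animals 3 and 14 (unadjusted p 0.156, limma).

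Nr1d1 and Nr1d2 encode the haem-binding repressors REV-ERBα and REV-ERBβ. Nr1d1 averaged 12.04 ± 0.19 in GnRH and 11.92 ± 0.38 in placebo females, and 12.09 ± 0.14 in GnRH and 12.01 ± 0.29 in placebo males. No GnRH animal of either sex lay above or below all placebo animals of its sex, and the averaged difference was 0.093 (95% interval -0.095 to 0.28, adjusted p 0.732). Leaving out animals 3 and 14 turned it to -0.014. Nr1d2 averaged 11.49 ± 0.26 in GnRH and 11.29 ± 0.42 in placebo females, and 11.52 ± 0.21 in GnRH and 11.26 ± 0.42 in placebo males, with an averaged difference of 0.23 (95% interval -0.0084 to 0.48, adjusted p 0.438). Without animals 3 and 14 it was 0.091.

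Dbp encodes a PAR-bZIP factor that relays the clock to D-box genes. Its values ran from 10.92 to 11.32 in GnRH females with a median of 11.07, against 11.05, 10.77, 9.87, 10.90 and 11.00 in placebo females 1 to 5. In males they ran from 10.75 to 11.18 with GnRH, median 10.88, and from 9.70 to 11.25 with placebo, median 10.93. Placebo female 3 and placebo male 14 were far below the rest, and the male medians stood in the opposite order to the male means of 10.93 with GnRH and 10.76 with placebo. The averaged difference of 0.26 (SE 0.13, adjusted p 0.438) was 0.046 without these animals, and the male difference of 0.17 turned to -0.046. Exons of Dbp share 539 bases (18.0% of its exonic length) with Sphk2 on the other strand, and those of Nr1d1 share 263 bases (8.55%) with Thra on the other strand. No source used here gives the strand setting of the counting, so reads of each pair in the shared stretch cannot be told apart.

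Within females alone limma called 0 of the 10 genes, where 0.0993% of genes tested were called, and 3 had an unadjusted p under 0.05 (Per2 and Per3 higher, Clock lower), where 9.57% of genes did (5.11% higher, 4.45% lower). Within males it called 0, where 0.496% were called, and 2 had an unadjusted p under 0.05 (Per1 and Per2, both higher), where 6.42% did (4.17% higher, 2.25% lower). The groups overlapped for all 10 genes in both sexes, where 0.768% of genes tested did not overlap in females and 0.402% in males. The difference of the GnRH effect between males and females was tested directly. It gave 0 calls among the 10 genes and 0 among all genes, with 0 of the 10 genes and 2.76% of all genes at an unadjusted p under 0.05. For Per2 the male effect minus the female effect was -0.041 with a 95% interval of -0.78 to 0.70. For Arntl it was 0.059 with an interval of -0.59 to 0.71. Differences between the sexes as large as the averaged effects of these genes, or larger, lay inside the intervals and were not resolved. Males against females gave 0 calls among the 10 genes with GnRH (0.0522% of all genes called) and 0 with placebo (0.047%). None of the 10 had an unadjusted p under 0.05 in these contrasts either, where 5.53% and 3.07% of all genes did. Per2 was 10.86 ± 0.38 in GnRH males and 11.00 ± 0.38 in GnRH females, and 10.21 ± 0.65 in placebo males and 10.31 ± 0.61 in placebo females.

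Animals of one group differed more in most clock genes than in most other genes. The within-group SD was 0.50 for Per2, 0.44 for Arntl, 0.42 for Per1 and 0.36 for Dbp, against a median of 0.116 over all genes tested. As percentiles of the genes tested, these SDs lay at 99.7, 99.5, 99.4 and 99.1. Nr1d2, Per3, Nr1d1 and Cry2 followed at percentiles 98.8, 98.1, 96.7 and 94.5, and Clock (SD 0.16) and Cry1 (SD 0.15) were lowest at 81.5 and 75.9. The genes tested include low genes, whose values are pulled towards their own mean. Genes of like level were not compared separately. Single animals stood at the end of their group in many genes at once. Placebo female 3 was the lowest of its group in Per1, Per2, Per3, Cry2, Nr1d1, Nr1d2 and Dbp and the highest in Cry1, Arntl and Clock. Placebo male 14 was at an end in 9 of 10 genes, with the same 7 lowest and with Cry1 and Arntl highest. GnRH female 10 showed the same order in 7 genes, with 6 lowest (Per1, Per2, Per3, Cry2, Nr1d2, Dbp) and Arntl highest, and placebo female 1 was its reverse in those same 7 genes. Placebo male 15 resembled placebo female 1, with Arntl lowest and Per2, Per3, Nr1d2 and Dbp highest.

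**Figure D3:**
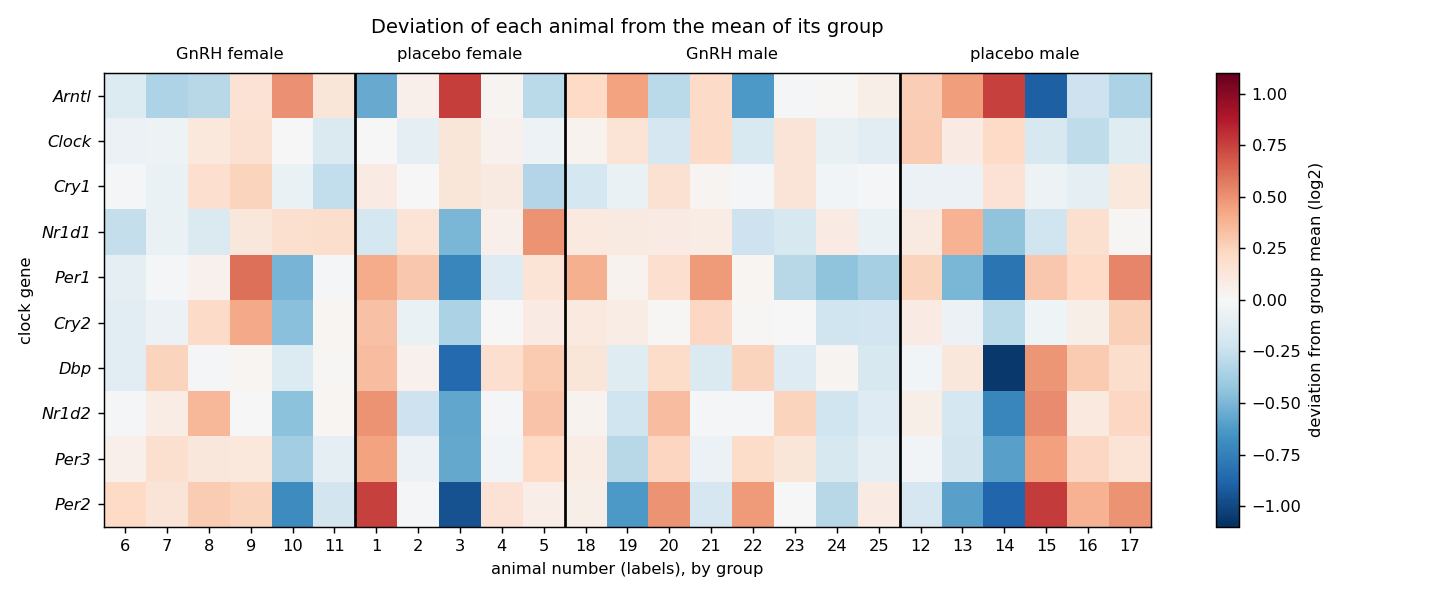
Deviation of each animal (columns, by group and label number) from the mean of its group, in log2, for the 10 clock genes (rows). Animals 3 and 14 are red in Arntl and blue in the Per genes, Dbp and Nr1d2, and animals 1 and 15 are the reverse.

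The SD within a group was smaller in GnRH than in placebo females for 7 of 10 clock genes, and smaller in GnRH than in placebo males for 9 of 10. Over all genes tested, the SD was smaller with GnRH for 32.1% in females and 55.7% in males. Dbp differed most, with an SD of 0.14 in GnRH and 0.49 in placebo females and of 0.18 in GnRH and 0.55 in placebo males. Without animals 3 and 14 the counts were 4 and 8 of 10, and the placebo SDs of Dbp were 0.13 and 0.19. The difference in spread was not tested.

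Many pairs of clock genes varied together between animals of a group. For this the mean of its own group was taken from each animal, and Pearson's r and Spearman's rho over the 25 animals were set against 100000 shuffles of animals within groups. Of the 45 pairs, 24 had an adjusted p under 0.05 for r, with the adjustment over the 45. The count was 15 without animals 3 and 14, 6 in the 14 GnRH animals alone and 25 in the 11 placebo animals alone. These correlations share the libraries and their scaling, and the share of such pairs among other genes was not computed. Among 19140 other genes, some counted pairs were at an end by r and some were not. Per3 ranked 1 with Per2 (r = 0.95), whereas Dbp ranked 1737 with Cry2 (r = 0.51). Per2 ranked 1109 from the lowest with Clock (r = -0.55).

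Arntl ran against Per2 and Per3. With Per2 it had r = -0.92 (rho = -0.88), and the deviations were of opposite sign in 20 of 25 animals. Both permutation p-values were the smallest that 100000 shuffles can give, 1e-05, or 5.62e-05 (r) and 9.00e-05 (rho) after adjustment over 45 pairs. Without animals 3 and 14, the farthest 2 in Per2, r was -0.88. Within groups r was -0.81 in 6 GnRH females (exact permutation p 0.05), -0.84 in 8 GnRH males (exact p 0.00913) and -0.98 in 6 placebo males (exact p 0.00278). Exact p-values within groups are unadjusted here and below. Among 19140 other genes, Arntl had the lowest r of all with Per2, and Per2 the lowest of all with Arntl. Arntl and Per3 gave r = -0.92 (rho = -0.87, both p 1e-05), with opposite signs in 23 of 25 animals and r = -0.88 without animals 3 and 14. Arntl and Per1 gave r = -0.55 (rho = -0.42, adjusted permutation p 0.0303 and 0.114). That value was -0.29 without animals 3 and 14 (adjusted p 0.346), -0.035 in the 14 GnRH animals (adjusted p 0.937) and -0.84 in the 11 placebo animals (adjusted p 0.00771). Leaving out animal 1, 3, 10, 13, 14 or 17 took its adjusted p above 0.05, with r between -0.62 and -0.44 over all animals left out in turn. The relation of Arntl with Nr1d2 was r = -0.84 (rho = -0.73, adjusted permutation p 5.62e-05 and 0.000750). With Dbp it was r = -0.79 (rho = -0.75, adjusted permutation p 5.62e-05 and 0.000193). Both were weaker in the 14 GnRH animals alone, at -0.61 and -0.66 (adjusted permutation p 0.122 and 0.0728).

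**Figure D4:**
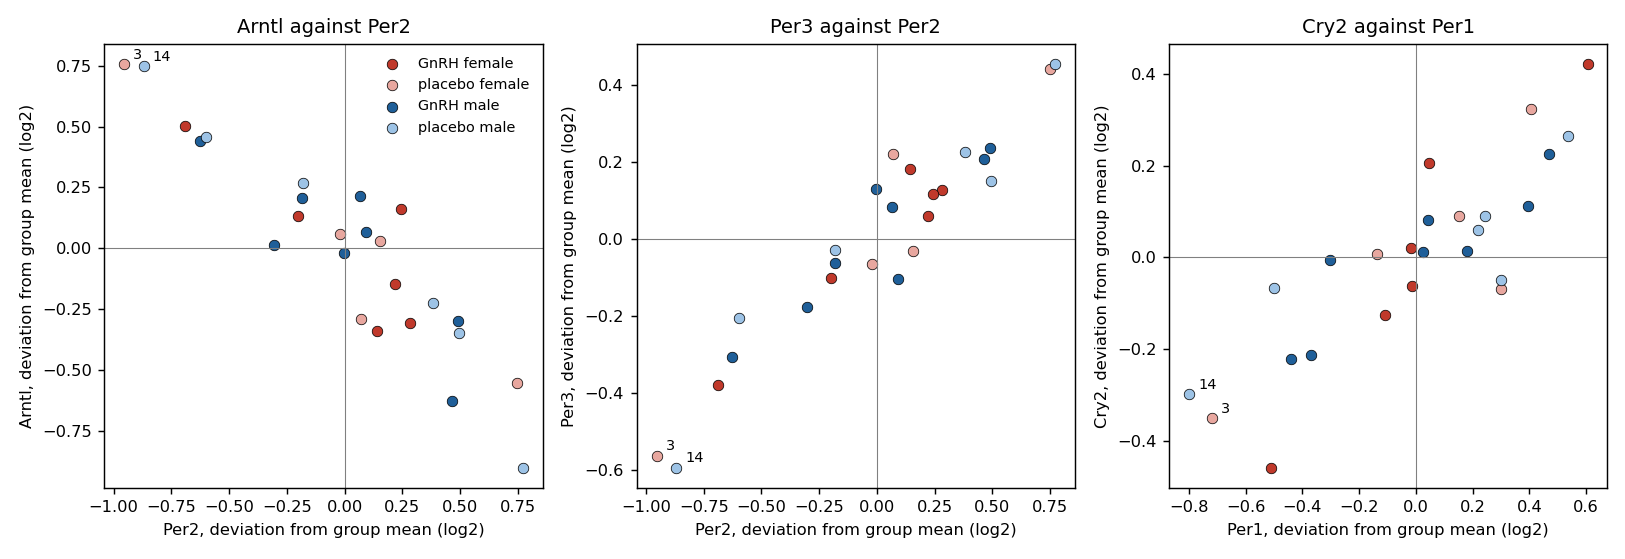
Deviations from the group mean (log2, both axes) of Arntl against Per2, Per3 against Per2 and Cry2 against Per1, 1 point per animal, coloured by group, with animals 3 and 14 numbered. Animals high in Per2 are low in Arntl (r = -0.92), whereas Per3 with Per2 (r = 0.95) and Cry2 with Per1 (r = 0.85) run the same way.

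Per2, Per3, Nr1d2 and Dbp ran together. Per2 and Per3 had r = 0.95 (rho = 0.89, both permutation p 1e-05), the highest r of Per2 with any of 19140 genes, and r was 0.92 without animals 3 and 14. Per3 and Nr1d2 had r = 0.94 (rho = 0.88, both permutation p 1e-05), and 0.89 without these animals. Within groups that r was 0.83 in 6 GnRH females (exact permutation p 0.0444), 0.84 in 8 GnRH males (exact p 0.00990) and 0.98 in 6 placebo males (exact p 0.00417). Dbp and Per3 had r = 0.85 (rho = 0.80, adjusted permutation p 0.0001 and 0.000150). It was 0.64 in the 14 GnRH animals (adjusted permutation p 0.0996) and 0.92 in the 11 placebo animals (adjusted p 0.00135). With Per2 and Nr1d2, Dbp had r = 0.77 and 0.79 over the 25 animals. Without animals 3 and 14 these were 0.65 and 0.55. In the 14 GnRH animals they were 0.58 and 0.38 (adjusted permutation p 0.163 and 0.320).

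Per1 paired most closely with Cry2 and less with Per2. Per1 and Cry2 had r = 0.85 (rho = 0.83, both permutation p 1e-05), and Cry2 ranked 5 among 19140 genes by r with Per1. It was 0.80 without animals 3 and 14, and 0.95 in 6 GnRH females (exact permutation p 0.00833), 0.90 in 8 GnRH males (exact p 0.00181) and 0.88 in 6 placebo males (exact p 0.00833). Per1 and Per2 had r = 0.70 (rho = 0.61, adjusted permutation p 0.00296 and 0.0118). That value was 0.38 in the 14 GnRH animals (adjusted p 0.320) and 0.89 in the 11 placebo animals (adjusted p 0.00498), and 0.52 without animals 3 and 14 (adjusted p 0.0560). With Cry2, r of Per1 was 0.85 in the 11 placebo animals, so the order of Cry2 and Per2 turned there. Neither the differences between treatments nor those between the r values of Per1 were tested.

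The other members followed over the 25 animals were Clock, Cry1 and Nr1d1. Clock and Arntl gave r = 0.62 (rho = 0.63, adjusted permutation p 0.00917 and 0.0103), and r = 0.55 without animals 3 and 14 (adjusted p 0.0649). Clock gave r = -0.56 with Dbp (rho = -0.60, adjusted permutation p 0.00897 and 0.00782) and r = -0.55 with Per2 (rho = -0.55, adjusted permutation p 0.0269 and 0.0301). Without animals 3 and 14 these were -0.55 and -0.44 (adjusted permutation p 0.0542 and 0.134). Single groups gave unlike values for these relations of Clock, and the differences between groups were not tested. In 6 GnRH females r was 0.012 with Arntl, -0.097 with Dbp and 0.34 with Per2. In 8 GnRH males it was 0.73, -0.67 and -0.68, and in 6 placebo males 0.79, -0.67 and -0.81. Cry1 had r between -0.33 and 0.33 with the members other than Nr1d1, with which it was -0.55 (rho = -0.55, adjusted permutation p 0.0220 and 0.0225). That relation was -0.47 without animals 3 and 14 (adjusted p 0.106). Single groups gave Cry1 wider values. With Clock its r was 0.96 in 6 GnRH females (unadjusted exact permutation p 0.00972), -0.13 in 8 GnRH males and 0.27 in 6 placebo males. With Nr1d2 it was 0.36, 0.65 and -0.50 in the same groups. Nr1d1 gave r = 0.03 with Arntl and 0.00 with Per2 over the 25 animals (adjusted permutation p 0.939 and 0.992). Without animals 3 and 14 these values became 0.65 and -0.67 (adjusted permutation p 0.00810 and 0.00603). Those animals were low in Nr1d1 and high in Arntl. Leaving them out was not planned, so these p-values only describe how the values depend on them. Without animals 3 and 15, the farthest 2 in Arntl, r of Arntl and Nr1d1 was 0.20.

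**Figure D5:**
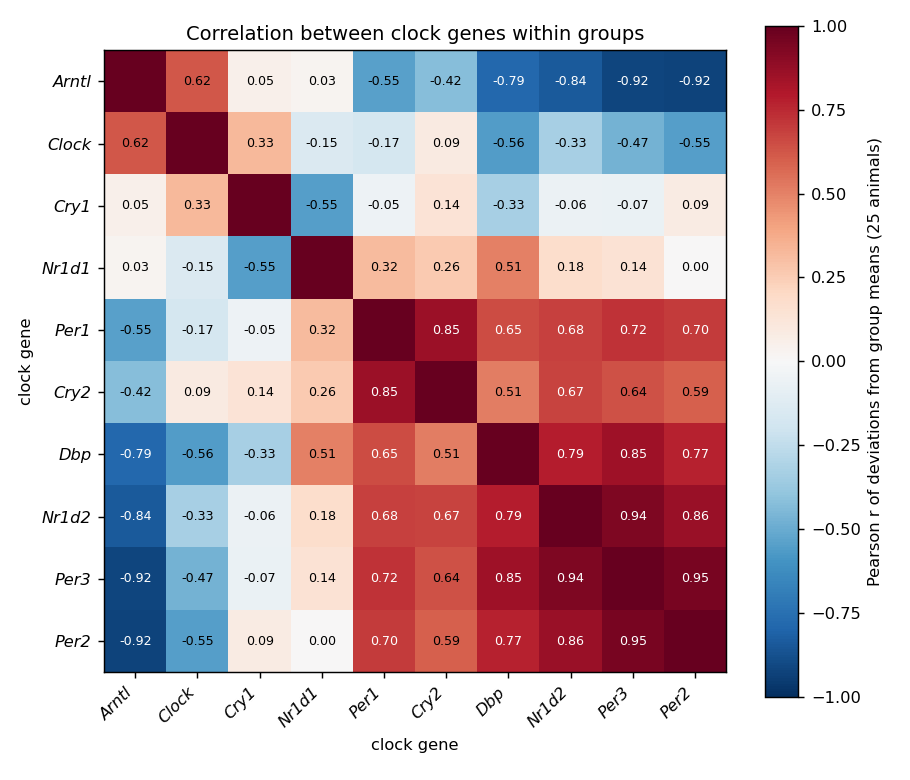
Pearson r of deviations from the group mean over 25 animals for each pair of the 10 clock genes (rows and columns), coloured blue for negative and red for positive. Arntl is negative with Per2 and Per3 (-0.92 each), Nr1d2 (-0.84) and Dbp (-0.79), and Cry1 lies between -0.33 and 0.33 with all but Nr1d1.

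The genes most like each of 3 members were taken over all 19140 other genes as a description. With Arntl, the highest r belonged to its partner's relative Npas2 (0.92), then Scd3, Wnt9a, Leo1 and BC034090 (0.86 to 0.83). The lowest belonged to Per2, Per3, the clock repressor gene Ciart (-0.90), the PAR-bZIP gene Tef (-0.89) and Fkbp5 (-0.87), a gene known to respond to glucocorticoids. With Dbp, the highest were Bhlhe41 (0.87), Tef (0.85), Per3, Nr1d2 and Ghrhr, the receptor for growth hormone releasing hormone (0.78), and the lowest were Abcd2 (-0.84), Fut2, Nlrp10, Arntl and Racgap1. With Per1, none of the 5 highest was a clock gene other than Cry2: the others were Slc25a25 (0.89), Cbarp, the AP-1 gene Fosl2 (0.86) and Ndel1. Among the lowest r with Per1 were those of the somatostatin receptor gene Sstr2 (-0.81), Dtx4, Mycn and Twist2.

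Other genes of the clock were read from lists, against the 1.71% of all genes called in the averaged contrast (1.42% higher, 0.287% lower). None of the 5 paralogs and ROR genes was called by limma, and 2 had an unadjusted p under 0.05. Npas2, the relative of Clock, differed by -0.44 (SE 0.15, adjusted p 0.168), Rora by -0.11, Arntl2 by -0.0059 and Rorb by 0.0050. The list's median was -0.0059. Of 10 output genes and further repressors, 1 rose and 0 fell, with a median of 0.15. Noct, which encodes the rhythmic phosphatase nocturnin, averaged 10.68 ± 0.19 in GnRH and 10.16 ± 0.34 in placebo females and 10.71 ± 0.49 in GnRH and 9.93 ± 0.42 in placebo males. It rose by 0.65 (SE 0.14, adjusted p 0.0111), and the call was lost without animals 3 and 14 (0.56, adjusted p 0.0670), in a fit that called fewer genes in all. Ciart (0.36), Tef (0.29), Bhlhe40 (0.20) and Bhlhe41 (0.16) did not pass, with adjusted p between 0.210 and 0.522. Of 11 genes for enzymes and partners that modify clock proteins, 1 rose and 0 fell, with a median of -0.024. Csnk1e, the casein kinase that phosphorylates PER proteins, averaged 9.93 ± 0.08 in GnRH and 9.74 ± 0.12 in placebo females and 9.93 ± 0.08 in GnRH and 9.73 ± 0.08 in placebo males. Its rise of 0.19 (SE 0.039, adjusted p 0.00470) held in each alternative fit, with adjusted p of at most 0.0309. Gsk3b differed by -0.19 (adjusted p 0.147), and Fbxw11, Nono and Timeless by -0.098 to -0.038.

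A further pair of lists held genes that share with Per1 a known response to hormones. Of 10 genes induced through CREB and calcium, 1 rose and 0 fell with the sexes averaged, with a median of 0.26, where 1.42% of all genes were called higher and 0.287% lower. Nr4a3, an orphan nuclear receptor gene, averaged 9.71 ± 0.67 in GnRH and 8.71 ± 0.42 in placebo females and 10.03 ± 0.67 in GnRH and 8.59 ± 0.48 in placebo males. It rose by 1.22 (SE 0.21, adjusted p 0.00109), by 1.44 in males alone (adjusted p 0.0108), and differed by 1.00 in females alone without passing (adjusted p 0.271). Nr4a2 (0.32), Sik1 (0.30), Junb (0.25) and Crem (0.24) did not pass, with adjusted p between 0.236 and 0.620. Of 12 genes induced by glucocorticoids, 3 rose and 0 fell, with a median of 0.24, against the same 1.42% and 0.287% of all genes. Cdkn1a, which encodes the cell cycle inhibitor p21, rose by 0.50 (SE 0.097, adjusted p 0.00388). The metallothionein genes Mt1 and Mt2 rose by 0.40 (adjusted p 0.0122) and 0.41 (adjusted p 0.0267), and without animals 3 and 14 their adjusted p were 0.0700 and 0.146. Pdk4 (0.39) and Tsc22d3 (0.27) did not pass, at adjusted p 0.235 and 0.165. Cdkn1a, Mt1 and Mt2 also respond to signals other than glucocorticoids. No corticosterone level or sampling hour was analysed here.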

How the data were processed

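Polyadenylated RNA of 25 pituitaries was sequenced. The submitters' processing notes name STAR, featureCounts and bcl2fastq with build mm10, and no source used here gives versions, strand setting or annotation. The authors deposited regularized-log values (so called in the table's name): log2 values scaled for library size, with each gene pulled towards its own mean, so folds of low genes are understated. Counts were not analysed here, so depth is unknown and no counting interval is given.

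From these values, the 19141 genes averaging at least 3 were fitted in limma 3.58.1 (R 4.3.3) with 1 mean per sex and treatment, a trend on the mean, 21 residual degrees of freedom and two-sided tests adjusted by the Benjamini-Hochberg method over all genes tested. Every adjusted p of a difference comes from limma. Correlations used deviations from group means, with 100000 within-group shuffles (numpy 2.4.6), two-sided, adjusted over 45 pairs, seed 1. Within single groups of 6 or more, exact enumeration was used, two-sided, and every exact p-value is unadjusted. Both procedures were checked on simulated data. Each animal is 1 library and replicate numbers follow the labels. For the male GnRH group, the size in the labels (n = 8) was used where the design text differs.

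The 10 members and all lists were chosen with earlier results of these data known. Named were all 10 members, up to 5 genes per other list by smallest p in the averaged contrast, the 5 highest and 5 lowest r for Per1, Arntl and Dbp without predicted genes, and Fshb. Some genes that this rule names are not reported here. Sphk2 and Thra are outside it. Gene models were those of GENCODE on mm10. Blood markers (4 of 5 with a row), macrophage, stem cell and posterior lobe markers gave 0 calls in the averaged contrast, endothelial markers gave 2 of 5, and anterior pituitary markers 3 higher and 1 lower of 12. Of the posterior lobe markers, Pmch had a mean under 3. Alternatives were other filters, quantile normalization, other variance models, array weights, 2 groups per fit, and animals left out.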

Additional observations from a re-analysis of the deposited data

Results flagged for a closer look

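Of 40 sets of 1 clock gene in 1 group, 3 held an animal whose gap to the nearest other exceeded the 95% critical value of Dixon's test. Chance flags about 1 in 20 such sets. Dbp in placebo female 3 was 9.87, with the next lowest of 5 animals at 10.77. Dbp in placebo male 14 was 9.70, with the next lowest of 6 at 10.73. Cry1 in placebo female 5 was 8.55, with the next lowest of 5 at 8.88. Animals 3 and 14 were also lowest of their groups in Per1, Per2, Per3, Cry2, Nr1d1 and Nr1d2. Their means over 12 anterior pituitary markers were 13.12 and 13.09, the lowest of the placebo females and of the placebo males. Their means over 4 blood markers were 11.27 and 11.32, inside their groups. Animal 3 was the highest placebo female in the means of macrophage markers (8.60, group median 8.18) and of posterior lobe markers (6.05, group median 5.92), and animal 14 the highest placebo male in that of endothelial markers (9.94, group median 9.90). The part of these levels in the Dbp values was not tested.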

How the results depend on the processing

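No paired analysis was possible because no number is shared between groups and nothing in the labels pairs the animals. Of 2547 alternatives over 78 results, 2428 gave the same direction and side of the threshold, or a close count, 31 were weaker, 25 stronger, 53 reversed and 10 moved. Weaker and stronger mean only that an adjusted p crossed 0.05. A change in size alone counted as the same, such as the averaged Dbp difference going from 0.26 to 0.046. The total therefore does not measure how steady the sizes were. The count of clock genes called stayed at 0 in females, in males, in the interaction and in both sex contrasts under every alternative run. In the averaged contrast it was 1 (Per2) with a mean of at least 5, 5 with array weights (Per1, Per2, Per3, Arntl, Clock, adjusted p 0.0153 to 0.0438), and 0 to 1 with 1 animal left out: Per2 was called without animal 1, 10, 15, 16, 17 or 19, with adjusted p between 0.0211 and 0.143 over the 25. The count of 24 pairs was 6 in GnRH animals alone, 25 in placebo animals alone, 15 without animals 3 and 14, and 19 to 26 with 1 animal left out. The cause was not tested.

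Signs turned for these values. Without animals 3 and 14, Cry1 was 0.00033 in females, 0.027 in males and 0.013 averaged, Nr1d1 -0.014, -0.015 and -0.014, and Dbp in males -0.046. Without animals 18 and 21, Cry1 in males was 0.022 and Arntl2 averaged 0.0095. Array weights gave Arntl2 0.022 and Rorb -0.012. With 1 animal left out, Cry1 ran from -0.11 to 0.021 in females, -0.029 to 0.027 in males and -0.059 to 0.0077 averaged, Nr1d1 from -0.014 to 0.24 in females and -0.015 to 0.15 in males, Dbp in males from -0.046 to 0.27, Arntl2 from -0.034 to 0.025 and Rorb from -0.045 to 0.046. The r of Nr1d1 and Dbp (0.51) was -0.044 in GnRH animals and -0.22 without animals 3 and 14. That of Per2 and Nr1d1 was -0.018 with quantile normalization, -0.55 in GnRH animals, -0.67 without animals 3 and 14, and -0.29 to 0.12 with 1 animal left out. That of Arntl and Nr1d1 was -0.23 in placebo animals and -0.089 to 0.29 with 1 left out. The cause of these turns was not tested either.

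The call of Mt2 was lost in 10 alternatives (adjusted p up to 0.146). Depth is unknown, so precision rests on 5 to 8 animals per group.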
